A study of Mus musculus with 10 samples.

Results

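The 10 genes described here encode proteins that mark cytotoxic T cells and natural killer (NK) cells or that these cells use to kill: Cd3e, Cd8a, Cd8b1, Gzma, Gzmb, Prf1, Ifng, Nkg7, Klrk1 and Ncr1. They were chosen by name, and each was found once among the 21959 genes of the authors' expression table. RNA was sequenced from 10 tumors of female BALB/c mice, aged 5 to 6 weeks when obtained, which had received an injection under the skin of the abdomen of 4T1, a line of mouse mammary carcinoma cells that stands in for triple-negative breast cancer. The exercise group (E, 5 tumors, E1 to E5) had voluntary access to a running wheel, and the non-exercise group (NE, 5 tumors, NE1 to NE5) was kept without it. All mice received the same cell line, no further allele or agent is named for either group, and all tumors were collected at 21 days. Each tumor is 1 library of a whole piece of tissue, so that fewer cells that carry a transcript and less RNA per cell cannot be told apart. The comparison of E with NE asks whether the transcripts of these genes in the tumor differed with exercise.

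Cytotoxic CD8 T cells recognize a target through the T cell receptor, whose signal passes through the CD3 chains, and NK cells recognize it through activating receptors such as NKG2D and NKp46. Both then release granules that hold perforin, which opens the target membrane, and granzymes, serine proteases that start cell death once inside. Both also secrete interferon gamma, which raises antigen presentation and the chemokines that draw in further T cells. In mammary tumors such cells are part of the immune infiltrate, beside macrophages, neutrophils and other leukocytes.

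The results turn on perforin and the granzymes, and the 250 bases before the start of 4 of the members and of Gzmd, a granzyme whose level followed that of Prf1, are shown here to let a reader compare their letters. They were read from RefSeq promoters of GRCm38.p6, 5′ to 3′ on the strand of the gene. Capitals mark matches, on either strand, to GTGTGA (T-box), TGTGGT (RUNX), GGAAAA (NFAT) or TGANTCA (AP-1), and no match overlaps another.
Gzmb (chr14:56262335-56262584, reverse strand): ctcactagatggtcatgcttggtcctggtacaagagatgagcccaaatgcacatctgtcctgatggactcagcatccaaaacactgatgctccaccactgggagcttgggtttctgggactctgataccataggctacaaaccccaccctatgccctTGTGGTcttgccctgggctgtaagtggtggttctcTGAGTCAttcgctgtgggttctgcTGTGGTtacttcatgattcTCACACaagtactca
Prf1 (chr10:61297586-61297835, forward strand): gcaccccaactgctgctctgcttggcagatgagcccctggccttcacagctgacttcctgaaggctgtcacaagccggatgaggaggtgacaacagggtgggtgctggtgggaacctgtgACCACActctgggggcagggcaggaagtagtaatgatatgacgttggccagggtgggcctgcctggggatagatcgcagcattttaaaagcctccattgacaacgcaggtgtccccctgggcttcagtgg
Gzma (chr13:113100982-113101231, reverse strand): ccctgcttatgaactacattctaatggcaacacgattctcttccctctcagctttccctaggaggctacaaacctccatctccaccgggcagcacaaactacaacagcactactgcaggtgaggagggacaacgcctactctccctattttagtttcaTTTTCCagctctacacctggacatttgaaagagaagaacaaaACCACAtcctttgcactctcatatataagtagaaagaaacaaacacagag
Cd3e (chr9:45009612-45009861, reverse strand): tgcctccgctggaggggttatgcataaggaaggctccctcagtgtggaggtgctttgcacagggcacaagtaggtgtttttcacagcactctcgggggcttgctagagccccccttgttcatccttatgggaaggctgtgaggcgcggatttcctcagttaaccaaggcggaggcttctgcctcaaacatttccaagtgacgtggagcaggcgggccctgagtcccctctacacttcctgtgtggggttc
Gzmd (chr14:56132594-56132843, reverse strand): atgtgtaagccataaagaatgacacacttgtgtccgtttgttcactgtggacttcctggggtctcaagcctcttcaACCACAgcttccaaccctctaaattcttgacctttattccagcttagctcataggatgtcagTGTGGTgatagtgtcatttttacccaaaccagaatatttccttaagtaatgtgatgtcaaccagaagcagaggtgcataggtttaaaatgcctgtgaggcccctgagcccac
The Gzmb window holds matches to RUNX at 93 and 34 bases, to AP-1 at 58 bases and to T-box at 15 bases before the start. Prf1 has 1 match to RUNX at 130 bases, Gzma has 1 to NFAT at 92 and 1 to RUNX at 50 bases, Gzmd has 2 to RUNX at 174 and 112 bases, and Cd3e has none. Of the 9 members with a RefSeq window, 6 held a RUNX match and 3 a T-box match, while 14.05% and 12.3% of the 32851 windows of all genes did. For NFAT and AP-1 the share of all windows was 20.4% and 6.75%, and each matched the window of 1 member. Compared position by position without gaps and with a shift of up to 30 bases, the windows of Gzmb and Gzmd were identical at 30.7% of positions, those of Gzmb and Prf1 at 30.2%, and those of Gzmd and its neighbor Gzmg at 85.0%. These are descriptions of letters, and no binding was measured.

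Between 15045613 and 20646763 reads were counted per tumor in E and between 18706032 and 23092251 in NE, so that 3 reads in the shallowest library correspond to 0.199 CPM, a unit of reads relative to the library total. Levels are given as FPKM, read densities scaled by gene length and library total as deposited by the authors, which are the scale on which genes of different length can be compared. Fold changes and their tests come from the counts (edgeR's quasi-likelihood test, positive for genes higher in E). The tissue was labeled mammary cancer, and the 8 epithelial markers were examined first. Krt8 ranged from 0 to 0.618 FPKM, Krt18 from 0.0603 to 1.46, Epcam from 0.244 to 1.41 and Cldn4 from 0 to 0.1802, so that several defining epithelial markers lay at or near 0, while Krt19 had 4.59 to 12.6 FPKM. The labelled epithelial identity of the tumor cells is therefore not seen in Krt8, Krt18, Epcam or Cldn4. Of the 8 markers 3 passed the filter on low counts. Among these, 2 were lower in E at an unadjusted p of at most 0.05 by edgeR, a limit that 4.86% of all genes tested reached, and none was called. The 8 markers summed to 131 CPM in NE5, against 19.7 to 28.8 in E and 25.1 to 31.2 in NE1 to NE4. The part of NE5 in the 2 differences was not tested. Whether the injected cells matched the labelled line was not tested. Which cells of the piece, injected or infiltrating, carried the transcripts of Prf1, the granzymes and the other members was also not tested. Their FPKM are levels of the whole piece and not counts of cytotoxic cells. The 6 pan leukocyte markers summed to 781 to 1127 CPM in E and 441 to 1179 in NE. NE1 had the lowest sum, and Ptprc, which encodes the leukocyte antigen CD45, had 3.17 FPKM there against 6.87 to 12.1 in the other tumors. In E5 the neutrophil markers summed to 287 CPM and the fibroblast markers to 15363 CPM, the highest of the 10 tumors, and in NE4 the skeletal muscle markers summed to 29375 CPM. Fold changes and correlations that changed most without NE1 or E5 are also given without them.

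None of the 10 cytotoxic genes passed the test between E and NE. A gene was called with an FDR of at most 0.05 when its fold change was also 2 or more, and 0 of 10 members were called, as were 0 of all 13517 genes tested (0.0%). The unadjusted p was at most 0.05 for 0 members and for 657 of all genes (4.86%), and in 0 members all values of one group lay above those of the other, against 98 of all genes (0.725%). All 10 members passed the filter on low counts, 6 had a positive and 4 a negative log2 fold change, and their median was 0.05 against -0.01 for all genes tested. Their FDR lay between 0.897 and 0.993. Other tools also called no gene at this rule. An unadjusted p of at most 0.05 was reached by 349 of 13517 genes by edgeR's exact test. It was reached by 644 of 13517 by limma-trend on the FPKM and by 846 of 17479 by DESeq2.

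**Figure D1:**
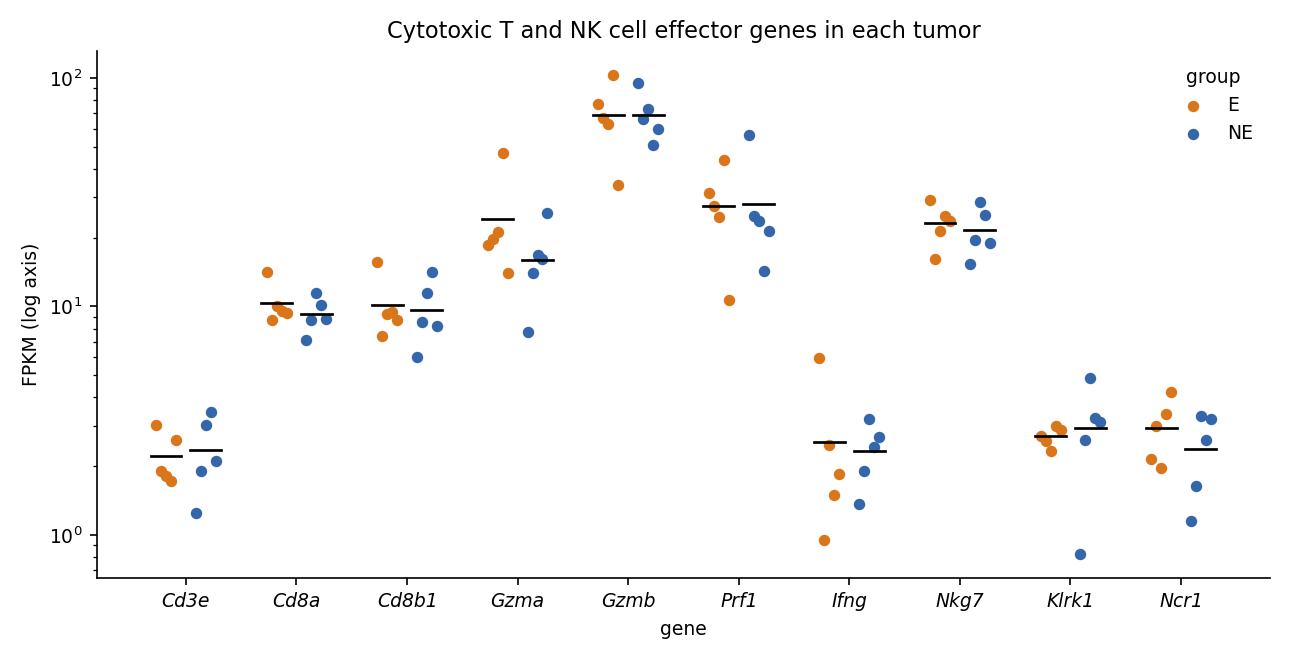
FPKM (log axis) of the 10 cytotoxic genes in each tumor, E in orange and NE in blue, with tumors 1 to 5 from left to right within each group and a black bar at the group mean (n = 5 each). The groups overlap for every gene, Gzmb has the highest mean (68.8 FPKM over the 10 tumors), and NE1 is the lowest NE tumor for Klrk1 (0.826) but the highest for Prf1 (56.0).

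Per length, Gzmb had the highest level of the 10 genes, with a mean of 68.8 FPKM over the 10 tumors. It was followed by Prf1 (27.8), Nkg7 (22.3), Gzma (20.1), Cd8b1 (9.88), Cd8a (9.79), Klrk1 (2.82), Ncr1 (2.66), Ifng (2.43) and Cd3e (2.28). Gzmb lay above Prf1, Gzma above Cd8b1 and Cd8a above Klrk1 in 10 of 10 tumors. The other neighbors in this order did not keep it, with Prf1 above Nkg7 and Nkg7 above Gzma in 7 of 10 tumors, Ncr1 above Ifng in 6, Klrk1 above Ncr1 and Ifng above Cd3e in 5, and Cd8b1 above Cd8a in 2. By FPKM the granule genes thus lay highest and the other receptor chains and interferon gamma lowest, with both CD8 chains between them. This order rests on the gene lengths used, 7183 bases for Klrk1 and 4080 for Cd3e against 914 for Nkg7 and 1006 for Gzma. In CPM, which are not divided by length, Klrk1 (5.81 to 35.1) overlapped Nkg7 (13.8 to 26.4), and Cd8a had 25.4 to 50.8.

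The T cell chains are Cd3e, a signaling chain of the T cell receptor complex, and Cd8a and Cd8b1, the chains of the CD8 coreceptor. Cd3e (ENSMUSG00000032093, chr9:44998740-45009627, reverse strand of GRCm38) had 3.02, 1.91, 1.81, 1.72 and 2.61 FPKM in E1 to E5 and 1.24, 1.90, 3.03, 3.45 and 2.11 in NE1 to NE5. The highest and the lowest tumor were both in NE, and E lay inside the range of NE. In E it averaged 2.21 ± 0.571 FPKM against 2.35 ± 0.889 for NE (SD over 5 tumors each), with a log2 fold change of -0.13 (SE 0.284, 95% interval -0.76 to 0.50).

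Cd8a (ENSMUSG00000053977, chr6:71373427-71379173, forward strand) had 14.1, 8.69, 9.99, 9.58 and 9.32 FPKM in E1 to E5 and 7.13, 8.75, 11.4, 10.1 and 8.78 in NE1 to NE5. E1 was the highest tumor and NE1 the lowest, and the other 8 lay close together. The mean of E was 112% of that of NE, a log2 fold change of 0.13 (SE 0.162, 95% interval -0.23 to 0.49), the narrowest interval of the 10 genes, which leaves out a change of 1.5-fold or more in either direction.

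Cd8b1 (ENSMUSG00000053044, chr6:71322788-71337494, forward strand) had 15.7, 7.45, 9.23, 9.42 and 8.74 FPKM in E1 to E5 and 5.99, 8.58, 11.4, 14.1 and 8.17 in NE1 to NE5. As for Cd8a, E1 was highest and NE1 lowest. The log2 fold change was 0.03 (SE 0.266, 95% interval -0.56 to 0.62). In the reference annotation 5.997% of the 50-base stretches of its transcript also occur in other genes, so that a part of its reads could belong elsewhere.

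Both CD8 chains moved together across tumors (Pearson's r = 0.908, n = 10, permutation p = 0.00038, adjusted 0.00101 over the 8 pairs of genes examined, Spearman's rho = 0.964, permutation p = 4e-05), and r was 0.753 without E1 and NE1. Cd3e and Cd8a had r = 0.751 (permutation p = 0.0112, adjusted 0.0224, Spearman's rho = 0.648, permutation p = 0.0497) and 0.722 without NE1 and NE4. Without NE1 alone r was 0.613 (permutation p = 0.0643). Cd3e rose with Ptprc (r = 0.662, permutation p = 0.0287, adjusted 0.0459, rho = 0.648, permutation p = 0.0491), but r was 0.252 without NE1 and NE4. Leaving out NE1 alone gave r = 0.313 (permutation p = 0.416), leaving out NE3 alone 0.605 (permutation p = 0.0925) and leaving out NE4 alone 0.672 (permutation p = 0.0431), so that the relation rests on NE1. All tumors share whatever the piece of tissue held, so that these values describe how the transcripts varied and not a relation within cells.

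Among the genes of the NK cell, Klrk1 encodes NKG2D, an activating receptor that CD8 T cells also carry, Ncr1 encodes NKp46, and Nkg7 encodes a granule membrane protein of NK and T cells. Klrk1 (ENSMUSG00000030149, chr6:129610323-129623864, reverse strand) had 2.72, 2.57, 2.32, 2.99 and 2.88 FPKM in E1 to E5 and 0.826, 2.60, 4.88, 3.25 and 3.11 in NE1 to NE5. All 5 E tumors lay close together (SD 0.139 on the log2 scale), while the lowest and the highest tumor of all were in NE (SD 0.911). The SD of NE includes NE1, whose 0.826 FPKM lay far below the 2.60 to 4.88 of the other NE tumors. The log2 fold change was -0.16 (SE 0.351, 95% interval -0.94 to 0.62). Without NE1 it was -0.39 (unadjusted p = 0.0415, FDR 0.505 by edgeR), and without NE1 and E5 it was -0.42 (unadjusted p = 0.0463, FDR 0.669). NE1 had the lowest Klrk1, so that leaving it out lowers the log2 fold change by construction. An unadjusted p of at most 0.05 by edgeR was reached by 1350 of 13635 genes without NE1. It was reached by 998 of 13572 without NE1 and E5. NE1 also had the lowest Ptprc, and relative to Ptprc the level of Klrk1 was similar in all tumors, with a ratio of 0.283 to 0.408.

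Ncr1 (ENSMUSG00000062524, chr7:4337724-4345164, forward strand) had 2.14, 2.995, 1.95, 3.40 and 4.23 FPKM in E1 to E5 and 1.15, 1.63, 3.31, 2.60 and 3.22 in NE1 to NE5. E was higher in 17 of the 25 pairings of an E with an NE tumor. Its log2 fold change was 0.26 (SE 0.327, 95% interval -0.46 to 0.98), and -0.08 without NE1 and E5, the lowest tumor of NE and the highest of E. Ncr1 rests on few reads, 41 to 116 per tumor. It moved with Klrb1c, an NK receptor gene known as NK1.1 in some mouse strains (r = 0.921, permutation p = 0.00022, adjusted 0.00088, rho = 0.903, permutation p = 0.00104), with r = 0.831 without NE1 and NE2.

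Nkg7 (ENSMUSG00000004612, chr7:43437073-43438249, forward strand) had 29.2, 16.1, 21.4, 24.8 and 23.7 FPKM in E1 to E5 and 15.4, 19.5, 28.6, 25.1 and 18.9 in NE1 to NE5. Both groups covered nearly the same range. The log2 fold change was 0.07 (SE 0.199, 95% interval -0.38 to 0.51).

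The genes that arm the cell are the granzymes and perforin. Gzma (ENSMUSG00000023132, chr13:113093825-113100981, reverse strand), which encodes the tryptase granzyme A, had 18.6, 19.7, 21.1, 47.1 and 14.01 FPKM in E1 to E5 and 7.71, 13.98, 16.8, 16.1 and 25.5 in NE1 to NE5. E4 was far above all other tumors, NE1 was the lowest, and 19 of the 25 pairings had the higher value in E. With 24.1 ± 13.1 FPKM for E against 16.0 ± 6.41 for NE (SD over 5 tumors each), Gzma had the largest fold change of the 10 genes, a log2 fold change of 0.55 (SE 0.371, 95% interval -0.27 to 1.37). This was within the spread between tumors (unadjusted p = 0.166, FDR 0.897 by edgeR, p = 0.238 by exact permutation, two-sided, on log2(FPKM + 0.1), where 5 tumors against 5 can reach 0.00794). Leaving out 1 tumor at a time moved it between 0.16 (without E4, unadjusted p = 0.602 by edgeR) and 0.78 (without NE5, unadjusted p = 0.0644). The value was positive in all 10 fits, which share most of their tumors.

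Gzmb (ENSMUSG00000015437, chr14:56258838-56262260, reverse strand), which encodes the aspartate-cutting granzyme B, had 76.8, 66.6, 62.7, 103 and 33.9 FPKM in E1 to E5 and 94.8, 65.8, 73.3, 50.9 and 59.7 in NE1 to NE5. E held the highest tumor (E4) and the lowest (E5), and the means were equal within 1 FPKM (68.6 ± 25.04 for E against 68.9 ± 16.6 for NE, SD over 5 tumors each). The log2 fold change was -0.03 (SE 0.253, 95% interval -0.59 to 0.53).

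Prf1 (ENSMUSG00000037202, chr10:61297833-61304680, forward strand), which encodes perforin, had 31.4, 27.5, 24.7, 43.7 and 10.7 FPKM in E1 to E5 and 56.0, 24.8, 23.6, 14.3 and 21.3 in NE1 to NE5. NE1 was the highest tumor and E5 the lowest, a 5.23-fold range, and without these 2 the remaining E tumors had 24.7 to 43.7 FPKM and the remaining NE tumors 14.3 to 24.8. The log2 fold change was -0.04 (SE 0.394, 95% interval -0.91 to 0.84) in all tumors. Without NE1 and E5 it was 0.56 (unadjusted p = 0.0240, FDR 0.654 by edgeR). These are the tumors with the highest and the lowest Prf1, so that leaving them out raises the difference by construction. Gzmb moved in the same way, to 0.27 (unadjusted p = 0.129, FDR 0.669).

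Ifng (ENSMUSG00000055170, chr10:118441046-118445892, forward strand), the gene of interferon gamma, had 5.95, 0.953, 2.47, 1.499 and 1.85 FPKM in E1 to E5 and 1.37, 1.90, 3.23, 2.42 and 2.67 in NE1 to NE5. E held both the highest tumor, E1, and the lowest, E2, with 23 to 159 reads per tumor. The log2 fold change was 0.10 (SE 0.458, 95% interval -0.91 to 1.12), the widest interval of the 10 genes, and -0.48 without E1. In the reference annotation 1 gene overlaps Ifng, and 19.9% of the 50-base stretches of the Ifng transcript also occur in 1 gene that the expression table does not list. Whether the overlapping gene is the one that shares them was not recorded. Reads where the genes overlap could not be told apart if strand was not used in counting, which is not stated. E1 was also highest in both CD8 chains and in Nkg7. The relation of Ifng with Cxcl9, a chemokine that interferon gamma induces, had r = 0.542 (permutation p = 0.106, adjusted 0.141, rho = 0.600, permutation p = 0.0743), and r = 0.704 (permutation p = 0.0481) without E1 and E2.

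**Figure D2:**
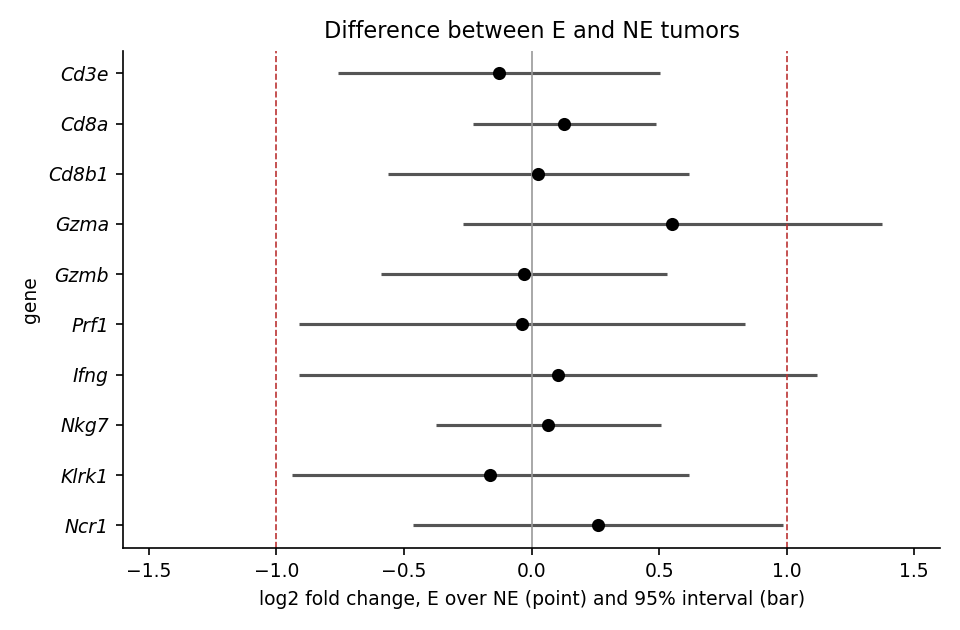
Log2 fold change of each cytotoxic gene in E over NE (point, edgeR's quasi-likelihood fit, n = 5 each) with its 95% interval (bar), and dashed lines at a fold change of 2 in either direction. Every interval covers 0, and those of Gzma (upper bound 1.37) and Ifng (upper bound 1.12) reach beyond a fold change of 2.

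The intervals set what these tumors could show. A fold change of 2 or more in favor of E lay outside the 95% interval of 8 of the 10 genes and inside that of Gzma and Ifng, while a fold change of 2 or more in favor of NE lay outside all 10. Smaller changes are covered to a different degree by each interval. The variation between tumors (coefficient of variation in the edgeR fit) was 43.0% for Prf1, 41.5% for Gzma, 51.9% for Ifng and 19.97% for Cd8a. Of the 3082 genes tested with a level like that of Prf1, 98.2% had a lower coefficient of variation, and the lowest such share was 81.1%, for Cd3e.

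To relate the members to the T cells and leukocytes in each piece, their FPKM were divided by those of Cd3e or of Ptprc, with 0.1 added. None of the 16 ratios passed an exact two-sided permutation test between E and NE (the smallest p were 0.135 for Gzma and 0.175 for Ncr1, both to Ptprc, and each adjusted p was 0.984). The log2 ratio of Gzma to Ptprc was 1.43 ± 0.635 for E against 0.89 ± 0.414 for NE (SD over 5 tumors each). Without E5 the difference was 0.76 (exact permutation p = 0.0317), and without NE1 that of Cd8a to Ptprc was 0.39 (exact permutation p = 0.0476), both before any adjustment. Of all fits of the 16 ratios without 1 tumor, only these 2 had a p of at most 0.05. E5 had the lowest Gzma of E, and NE1 the highest ratio of Cd8a to Ptprc, so that leaving them out raises the differences by construction. Without E4 the difference of Gzma to Ptprc was 0.32 (exact permutation p = 0.27). In FPKM, which depend on the gene lengths used, Prf1 was 3.99 to 41.8 times as high as Cd3e and Gzmb 12.6 to 70.7 times. The lowest ratio was in E5 and the highest in NE1 for both. Cd8a, in contrast, kept within 2.88 to 5.39 times the level of Cd3e.

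Perforin and granzyme B varied together. Gzmb and Prf1 had r = 0.953 (permutation p = 7e-05, adjusted 0.00056, rho = 0.915, permutation p = 0.00059), and 0.950 without E4 and E5, the highest and lowest tumors of Gzmb. Gzma had r = 0.212 with Gzmb (permutation p = 0.549, rho = 0.139, permutation p = 0.707). This value depended on single tumors, as r was 0.676 without NE1 and -0.25 without E4. Nkg7 and Prf1 had r = -0.32 (permutation p = 0.36, rho = -0.24, permutation p = 0.515), and 0.135 without E2 and NE1. As a description of all pairs, Prf1 had negative r with Cd3e (-0.69), Ncr1 (-0.58), Klrk1 (-0.57), Cd8b1 (-0.34), Nkg7 (-0.32), Cd8a (-0.21) and Ifng (-0.18), while Cd3e had positive r with Cd8b1 (0.859), Nkg7 (0.775), Cd8a (0.751), Klrk1 (0.750), Ifng (0.640) and Ncr1 (0.514). Several of these values rest on NE1. Without it the r of Prf1 was -0.51 with Cd3e, -0.30 with Ncr1, -0.12 with Klrk1, -0.012 with Cd8b1, -0.0027 with Nkg7, 0.203 with Cd8a and 0.00086 with Ifng, and that with Gzma went from 0.0476 to 0.687. The r of Cd3e without NE1 was 0.788 with Cd8b1, 0.663 with Nkg7, 0.613 with Cd8a, 0.557 with Klrk1, 0.599 with Ifng and 0.164 with Ncr1. Gzmb and Prf1 kept r = 0.967 without NE1, while the r of Prf1 with the CD8 chains, Nkg7 and Ifng then lay between -0.012 and 0.203.

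The 3 genes most like Prf1 over the 10 tumors, among all genes that passed the filter, were further granzymes, Gzme (r = 0.992), Gzmf (0.986) and Gzmd (0.985). These genes and Gzmc and Gzmg lie beside Gzmb in a row on chromosome 14, all on the reverse strand, and encode granzymes of the mouse made by activated T and NK cells. Gzmd had 191, 181, 167, 341 and 35.5 FPKM in E1 to E5 and 431, 186, 137, 65.5 and 129 in NE1 to NE5. As for Prf1, NE1 and E4 were the highest and E5 and NE4 the lowest, a span of 35.5 to 431. Gzmg had 36.8 to 483 FPKM, Gzmf 27.0 to 331, Gzmc 27.2 to 215 and Gzme 14.004 to 185. The sum of Gzmc to Gzmg was 4.18 (E5) to 17.4 (NE1) times the FPKM of Gzmb and 54.4 to 1325 times that of Cd3e. Together with Gzmb they took 0.0179% of all counted reads in E5 and 0.166% in NE1. Their log2 fold changes between E and NE lay between -0.15 (Gzmg) and 0.05 (Gzmc), with SEs of 0.532 to 0.591. Without NE1 and E5 they lay between 0.70 (Gzmg) and 0.83 (Gzmc), with unadjusted p of 0.0418 to 0.0731 and an FDR of 0.669 by edgeR. NE1 was the highest tumor for each of these granzymes. E5 was the lowest for Gzmd to Gzmg, while Gzmc was lowest in NE4 (27.2 FPKM against 28.3 in E5). As for Prf1, the shift follows from which tumors were left out. These paralogs share sequence, with 21.9% of the 50-base stretches of Gzmd, 20.6% of Gzme, 19.8% of Gzmg, 7.36% of Gzmf and 4.14% of Gzmc found in another gene, so that their single levels are uncertain where reads were split between them. No stretch of Gzmb or Prf1 was shared. Gzmc was added to this account after its values were seen.

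**Figure D3:**
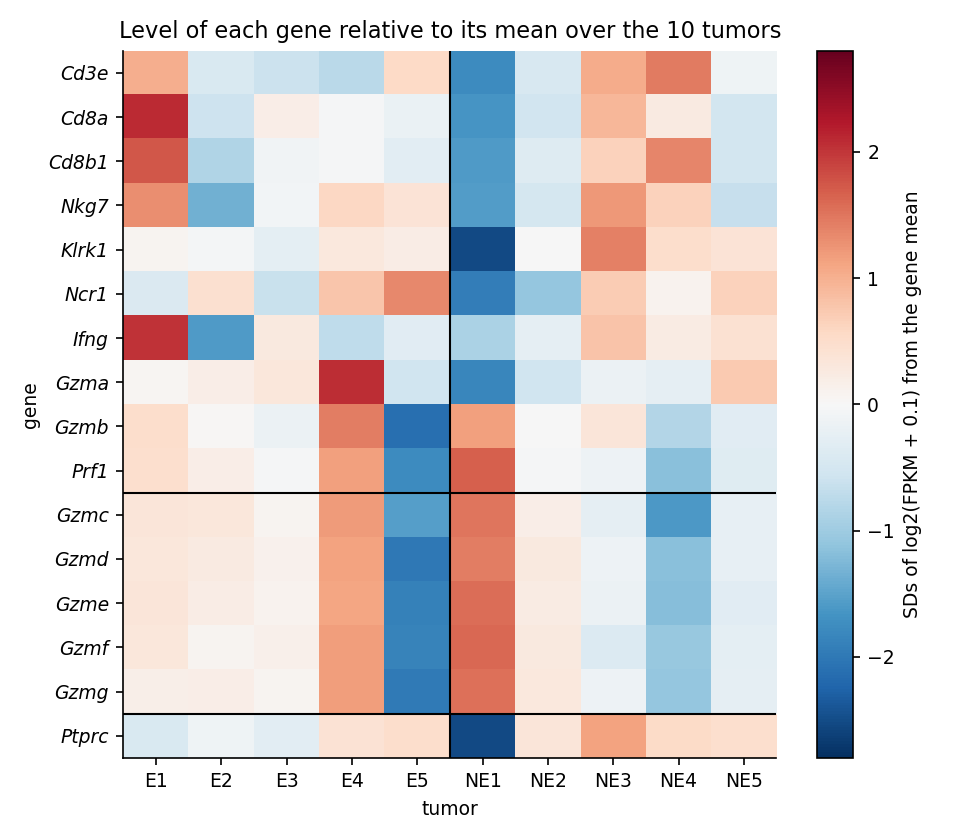
Level of each gene in each tumor as SDs of log2(FPKM + 0.1) from the mean of that gene over the 10 tumors (red above, blue below), with E on the left of the vertical line. The 8 members at the top lie below their means in NE1, while Gzmb, Prf1 and Gzmc to Gzmg are high in NE1 and E4 and low in E5 and NE4, and Ptprc at the bottom is lowest in NE1.

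The transcripts of Prf1 and Gzmb ran against those of leukocyte markers. All 6 pan leukocyte markers had negative r with Prf1, from -0.61 (Itgb2) to -0.78 (Coro1a), and with Gzmb, from -0.42 (Ptprc) to -0.62 (Laptm5). Without NE1 the range was -0.28 (Itgb2) to -0.66 (Coro1a) for Prf1 and -0.13 (Ptprc) to -0.57 (Coro1a) for Gzmb. Gzma had positive r with all 6 markers, from 0.264 (Laptm5) to 0.545 (Ptprc), but negative r without NE1, from -0.079 (Ptprc) to -0.66 (Coro1a). Cd3e had positive r with all 6, from 0.662 (Ptprc) to 0.915 (Itgb2), and from 0.313 (Ptprc) to 0.959 (Cd52) without NE1. NE1 had the lowest value of the 10 tumors in Cd3e, Cd8a, Cd8b1, Gzma, Nkg7, Klrk1 and Ncr1 and the lowest sum of pan leukocyte markers, but the highest Prf1, Gzmc, Gzmd, Gzme, Gzmf and Gzmg. E5, with the lowest Prf1 and Gzmb, had the highest Ncr1 and the highest sums of neutrophil and fibroblast markers. NE4, with the second lowest Prf1 and Gzmb, had the highest Cd3e and the highest sum of skeletal muscle markers. The part of tissue composition in these patterns was not tested, and no cell type was separated.

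**Figure D4:**
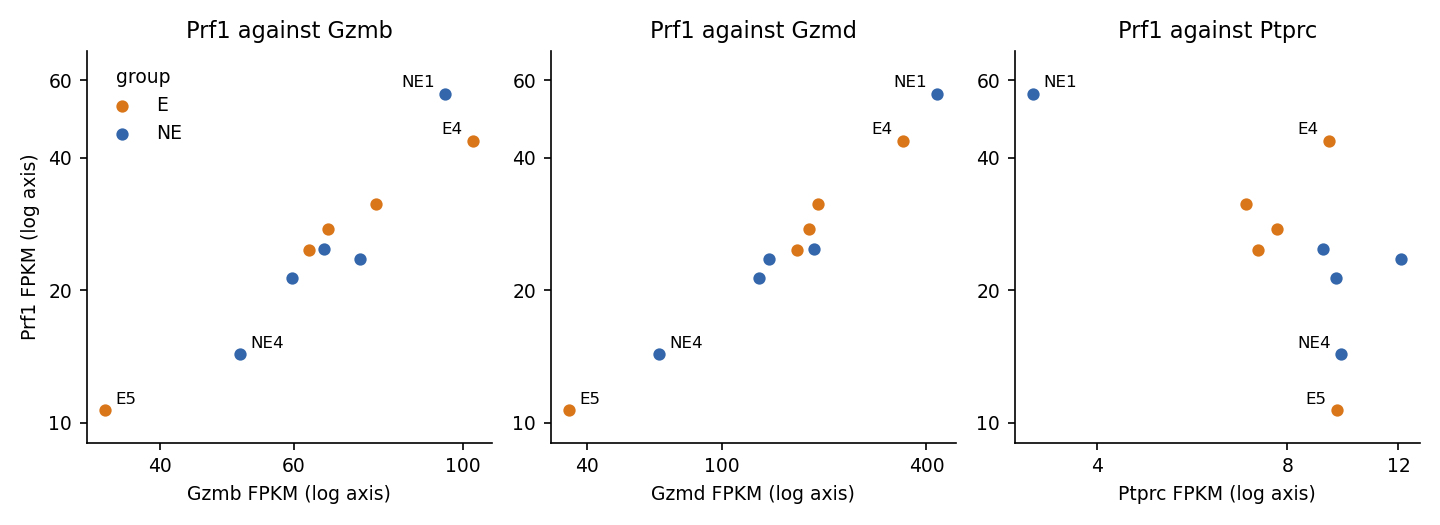
FPKM of Prf1 against those of Gzmb, Gzmd and Ptprc in the 10 tumors (log axes, E in orange, NE in blue). Prf1 follows Gzmb (r = 0.953) and Gzmd (r = 0.985), and NE1 has the highest Prf1 (56.0 FPKM) with the lowest Ptprc (3.17 FPKM).

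For each of the other members the 3 genes with the highest r over the 10 tumors were taken by the same measure. For Cd8b1 these were Pdcd1 (r = 0.951), the gene of the checkpoint receptor PD-1, Cd8a (0.908) and Cd3d (0.904). For Cd8a they were Slc39a4 (0.919), Cd8b1 (0.908) and Pdcd1 (0.881), and for Cd3e Creg1 (0.983), Il12rb2 (0.974) and Zc3h12d (0.968). Klrk1 was most like Ms4a4b (0.979), Gpr65 (0.978) and Tnfaip8 (0.973), and Ncr1 most like Map3k8 (0.954), Mcoln2 (0.932) and Fam217b (0.928). The members thus differed in their nearest genes, with Pdcd1 among those of both CD8 chains and granzymes next to Prf1. These are the highest of many r over 10 tumors, with no test, and the search was not repeated without NE1. Gzmb was like Tmprss6 (0.974) and Dsc2 (0.960), of which Tmprss6 did not exceed 0.417 FPKM, and its r with Gzmd was 0.957. Nkg7 was most like Rcbtb1 (0.908), Slc39a4 (0.901) and Sh2d2a (0.896), Ifng most like Txnrd1 (0.887), Magohb (0.882) and Foxn2 (0.862), and Gzma most like Pcdh10 (0.895), Pon2 (0.894) and Rab43 (0.866).

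The genes around the members were read from 9 lists of 160 genes, of which 151 were found and 143 tested. None was called, and 4 (2.797%) had an unadjusted p of at most 0.05, against 4.86% of all genes. Eomes, a T-box factor of cytotoxic T and NK cells, had 10.1, 10.98, 9.85, 9.72 and 9.12 FPKM in E1 to E5 and 11.6, 10.7, 11.1, 11.4 and 11.96 in NE1 to NE5. By TMM-scaled CPM all E tumors lay below all NE tumors, although by FPKM E2 lay above NE2. Its log2 fold change was -0.22 (SE 0.063, unadjusted p = 0.00497, FDR 0.897 by edgeR).

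Gzmm, a further granzyme, had 0.165 to 0.586 FPKM in E and 0.471 to 1.63 in NE, on 5 to 55 reads (log2 fold change -1.08, unadjusted p = 0.0308, FDR 0.897 by edgeR). Ccl4, a chemokine of activated T cells and macrophages, had 6.50 to 26.7 FPKM in E and 4.59 to 10.5 in NE (0.92, unadjusted p = 0.0474, FDR 0.897), with its highest value in E5. Without E5 the log2 fold change of Ccl4 was 0.55 (unadjusted p = 0.160, FDR 0.9997 by edgeR), without NE1 0.81 (unadjusted p = 0.0939, FDR 0.534) and without both 0.42 (unadjusted p = 0.277, FDR 0.726). Stx11, needed for the release of cytotoxic granules, had 17.5 to 19.4 FPKM in E and 14.1 to 17.1 in NE (0.14, unadjusted p = 0.0316, FDR 0.897), and its groups did not overlap by FPKM but did by TMM-scaled CPM. Without NE1 and E5 its unadjusted p was 0.0586 (0.14, FDR 0.669), while Eomes had 0.0176 (-0.19, FDR 0.654) and Gzmm 0.0271 (-1.26, FDR 0.654).

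By role, 5 of the 19 tested genes of the T cell receptor and its proximal signaling had a positive and 14 a negative log2 fold change (median -0.13), among them Lck (0.17), Lcp2 (0.03) and Cd2 (-0.06). Of 29 NK cell receptors and adaptors, 11 were positive and 18 negative (median -0.08), with Tyrobp (0.10), Fcer1g (-0.0005) and Klra4 (-0.12) at the highest levels. Over the 10 tumors the r with Ptprc was 0.805 for Tyrobp, 0.803 for Fcer1g and -0.073 for Klra4. Which cells carried these transcripts was not tested. In the granule packaging and release list 11 of 14 were positive (median 0.05), with Srgn, the proteoglycan core of the granule, at 0.27 and Ctsc, the protease that activates granzymes, at 0.04. None of these genes passed the test. The other granzymes and death ligands had 4 positive and 7 negative genes (median -0.10), the lineage transcription factors 5 and 7 (median -0.07), the cytokines and receptors that act on cytotoxic cells 7 and 10 (median -0.07, with Il2rb at 0.08 and Il18rap at -0.18), and the recruitment chemokines and receptors 9 and 6 (median 0.08, with Cxcl9 at -0.47 and Cxcl10 at 0.08).

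Interferon gamma acts through its receptor on the tumor cells and leukocytes, and 18 of the 22 genes of that receptor and response list had a negative log2 fold change (median -0.13, against -0.01 for all genes). The members with the highest levels were Cd74 (-0.21), Gbp2 (-0.35, unadjusted p = 0.0797, FDR 0.897 by edgeR) and Igtp (-0.17). The list had 0 genes at an unadjusted p of at most 0.05 and its genes vary together, so that the 18 are not independent. The NKG2D ligands, which are bound by the receptor that Klrk1 encodes, had 2 positive and 2 negative tested genes, with log2 fold changes of -0.17 for Ulbp1, 0.06 for Raet1e and 0.005 for Raet1d.

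The summed level of each list per tumor overlapped between E and NE in all 9 lists and in the members. For the members the sum was 195 to 411 CPM in E and 264 to 345 in NE (exact two-sided permutation test of the log2 sum, p = 0.984), and for the T cell receptor list 185 to 243 in E and 119 to 313 in NE (exact p = 1.0). The sum of the members follows mostly Gzmb and Prf1. In NE1, the highest sum of NE, they gave 133 and 142 of 345 CPM, although Cd3e and both CD8 chains were lowest there.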

How the data were processed

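RNA of 10 tumors (5 E and 5 NE) was sequenced as paired-end TruSeq libraries, and the study's methods name Hisat2 for alignment and StringTie for expression. The authors deposited 1 table that lists, for every gene, its FPKM and its whole-number count in each tumor. How the counts were obtained, the strandedness of the counting and the build of the table are not given in the sources used here (the methods name a rat assembly, while the identifiers are mouse Ensembl), so that positions were taken from GRCm38. The deposited FPKM are the counts scaled by gene length and total count, without TMM factors. Of the rows, 51 had no gene name and were left out.

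Counts were tested with the quasi-likelihood F test of edgeR 4.0.16 (R 4.3.3) after TMM normalization and filterByExpr by group, with Benjamini-Hochberg adjustment across genes, a procedure checked on simulated data. DESeq2 1.42.0 and limma 3.58.1 were alternatives. Single values and ratios used exact two-sided permutation tests over the 252 assignments of log2(FPKM + 0.1), and correlations used 100000 permutations (scipy 1.17.1, Python 3.11.15). Groups and numbers come from the labels. The members and gene lists were chosen with earlier results of these data known. Named genes are the members, the genes of each list at an unadjusted p of at most 0.05 (up to 8) or among its 3 highest levels, and the 3 genes most like each member, of which 1 is not reported here. Lck and Cd3d fall under the naming rule, and Gzmc was added after its values were seen. No pair of libraries was a repeat (chi-square over degrees of freedom of at least 8.86 for all 45 pairs). Depth was 15045613 to 23092251 counts, and counting error is only a part of the intervals given.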

Additional observations from a re-analysis of the deposited data

Results flagged for a closer look

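The values below stood apart within their own group of 5 by Dixon's criterion, the distance of the extreme tumor from its neighbor as a share of the range. This held for 20 of the 112 groups examined, where about 1 in 20 groups, or 5.6, would be past the limit by chance, and the values are not independent since several genes moved together.

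Among the members, E1 stood above the other E tumors in Cd8a (14.1 FPKM) and Cd8b1 (15.7 FPKM), and E4 in Gzma (47.1 FPKM). NE1 stood above the other NE tumors in Prf1 (56.0 FPKM) and in the related granzymes Gzme (184.8 FPKM) and Gzmf (331 FPKM). Relative to Ptprc, the gene of CD45, the log2 ratio in NE1 was 1.15 for Cd8a, 4.86 for Gzmb and 4.10 for Prf1, all above the other NE tumors. In E5 it was 1.81 for Gzmb and 0.158 for Prf1, both below the other E tumors. NE1 had the lowest Ptprc of the 10 tumors and E5 the lowest Gzmb and Prf1, so that these ratios restate levels given in the report.

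Among the lists, the summed level of the interferon gamma receptor and response genes was 5757 CPM in E1, above the other E tumors. E1 also had the highest Ifng of all tumors (5.95 FPKM). However, NE3 and NE4 had higher sums of this list (6438 and 5823 CPM) with less Ifng (3.23 and 2.42 FPKM). The NKG2D ligands summed to 288.6 CPM in E3, above the other E tumors. E5 stood above the other E tumors in neutrophil (287 CPM), fibroblast (15363 CPM) and endothelial cell markers (216 CPM). Skeletal muscle markers summed to 3988 CPM in E2 and 29375 CPM in NE4, gamma delta T cell and ILC markers to 12.2 CPM in NE4, and epithelial markers to 131 CPM in NE5. The part of these cell types in the levels of the members was not tested.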

How the results depend on the processing

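No gene was called under edgeR's exact test, DESeq2, limma-trend, library size without TMM, no filter, a minimum of 10 counts per tumor, the replicate block or any fit that left out tumors, while other thresholds gave 657 genes (unadjusted p of at most 0.05) and 56 (with a 2-fold change as well). The first became 1350 without NE1 and 372 without E5. DESeq2 had 2 genes at an FDR of at most 0.05 below a 2-fold change. No call of a member depended on a setting, but the sign of 8 members changed in fits without 1 tumor. With 5 tumors a group and 23 to 159 reads for Ifng, such small changes could not be told from 0.

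Without NE1 and E5, a choice made after seeing the data, the log2 fold change was -0.061 for Cd8b1, 0.27 for Gzmb, 0.56 for Prf1, -0.048 for Nkg7 and -0.083 for Ncr1. By limma-trend it was 0.0012 for Prf1, -0.025 for Ifng and 0.0030 for Klrk1. With the replicate number as a block it was -0.17 for Ifng and 0.015 for Klrk1, and 714 genes had an unadjusted p of at most 0.05. The numbers did not pair the tumors (r of same-numbered tumors -0.32 to 0.316, and only number 5 correlated best with its own). With a pseudocount of 1 the difference of the log2 ratio was 0.010 for Ifng to Cd3e and 0.0075 for Prf1 to Ptprc. Without the 2 tumors farthest from the median, r was 0.135 for Nkg7 and Prf1, 0.704 for Ifng and Cxcl9, and 0.252 for Cd3e and Ptprc. The cause was not tested.

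Leaving out 1 tumor at a time, the log2 fold change ranged from -0.28 to 0.078 for Cd3e, -0.0038 to 0.21 for Cd8a, -0.18 to 0.23 for Cd8b1, -0.22 to 0.14 for Gzmb, -0.26 to 0.37 for Prf1, -0.48 to 0.31 for Ifng, -0.030 to 0.18 for Nkg7 and -0.39 to 0.091 for Klrk1, while Gzma and Ncr1 kept a positive sign. The difference of the log2 ratio to Cd3e ranged from -0.28 to 0.29 for Gzmb, -0.32 to 0.52 for Prf1 and -0.30 to 0.17 for Ifng. To Ptprc it ranged from -0.22 to 0.088 for Cd3e, -0.028 to 0.39 for Cd8a, -0.16 to 0.24 for Cd8b1, 0.32 to 0.76 for Gzma, -0.24 to 0.38 for Gzmb, -0.28 to 0.61 for Prf1, -0.52 to 0.15 for Ifng, -0.050 to 0.31 for Nkg7 and -0.0061 to 0.13 for Klrk1. The r ranged from 0.613 to 0.823 for Cd3e and Cd8a, 0.313 to 0.777 for Cd3e and Ptprc, and -0.25 to 0.676 for Gzma and Gzmb.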

Other observations

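Further genes lie in the chromosome 14 row of proteases that holds Gzmb, and their values, singled out after they were seen, were read over the 10 tumors with no test. Ctsg, the gene of the neutrophil protease cathepsin G, lies 160 kb from Gzmb and had 1.48 to 11.8 FPKM with r = 0.908 with Gzmb and -0.36 with Ptprc. Mcpt8, a basophil protease gene 177 kb away, had 1.53 to 4.05 FPKM with r = 0.775 with Gzmb. The mast cell protease genes farther along the row ran the other way. Cma1, Mcpt1, Mcpt2 and Mcpt4 had r of -0.48, -0.54, -0.44 and -0.49 with Gzmb and of 0.734, 0.755, 0.582 and 0.760 with Ptprc, and Mcpt4 had the highest mean (37.4 FPKM). Gzmn, between Gzmf and Gzmg, did not exceed 12 reads in a tumor.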
